A study of Mus musculus with 12 samples.

Results

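Messenger RNA levels of 9 transcription factor genes linked to T cell quiescence were followed in CD4 T cells of Pkm2 knockout (KO) and wild type (WT) mice, at rest and after stimulation. The genes were taken by symbol from the 55450 genes of the deposited count tables: Klf2, Klf3, Klf6, Klf7, Klf13, Foxo1, Foxo3, Foxp1 and Bach2. All 9 were found in both tables, and all 9 passed the filter on low counts in each fit. In mm10 the KLF genes lie at chr8:72319033-72321656 (Klf2), chr5:64803388-64832901 (Klf3), chr13:5861482-5870394 (Klf6), chr1:64029447-64122282 (Klf7) and chr7:63886351-63938915 (Klf13). The forkhead genes lie at chr3:52268336-52353221 (Foxo1), chr10:42181841-42276755 (Foxo3) and chr6:98925338-99522721 (Foxp1), and Bach2 lies at chr4:32238804-32586108.

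The 12 libraries fell into 4 groups of 3. KO stimulated and WT stimulated cells were naive T cells, taken from the spleen and lymph nodes, that were kept for 24 hours with interleukin 7 (25 ng/mL) on plates coated with antibodies to CD3 (1 ug/mL) and CD28 (2 ug/mL). KO resting and WT resting cells had interleukin 7 alone. The labels also call the source splenocytes and the culture time overnight, and RNA was taken after positive selection of CD4 T cells. The knockout's allele, the driver of any Cre, the animals' age and strain, and whether a group's 3 libraries are of different animals are not given in the sources used here, so p-values measure the spread between these libraries.

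Quiescence is the resting, small and non-dividing state of a naive T cell. KLF proteins are zinc finger factors that bind CACCC and GC-rich DNA. Klf2 keeps naive T cells at rest and switches on receptors that let them leave and re-enter lymphoid organs, among them S1pr1. FOXO proteins are forkhead factors that act in the nucleus until kinases of the PI3K pathway, chiefly AKT and SGK1, phosphorylate them after receptor signalling. Foxo1 maintains Klf2, Ccr7 and Il7r in T cells. Foxp1, another forkhead factor, restrains activation of naive T cells, and Bach2 is a basic leucine zipper repressor that competes with AP-1 factors and holds back effector genes.

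Library totals lay between 67333490 and 76891786 counts in KO stimulated, 72095751 and 74590929 in WT stimulated, 69329786 and 72128433 in KO resting, and 63266477 and 71301865 in WT resting libraries. Levels are given as CPM, a gene's counts relative to its library's total after TMM scaling. Pkm, the gene that encodes the M1 and M2 pyruvate kinases, checked the genotype labels. It stood at 1056, 1065 and 1036 CPM in KO stimulated libraries, against 2483, 2450 and 2521 CPM in WT stimulated libraries, and at 172.5, 195.3 and 188.2 CPM in KO resting libraries, against 424, 430.6 and 509.2 CPM in WT resting libraries. The KO libraries were lower in both conditions (log2 fold change -1.23 ± 0.03, SE, stimulated, edgeR adjusted p = 1.4e-08, and -1.30 ± 0.08 resting, adjusted p = 0.0041).

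The libraries labelled stimulated and resting differed in sex-linked transcripts. Xist, made from an inactive X chromosome, had 940.7 to 1126 CPM across the 6 stimulated samples, against 0.0496 to 0.0867 CPM across the 6 resting ones. The Y-linked Ddx3y had 0 counts in the stimulated libraries and 143.2 to 167.5 CPM in the resting libraries. Condition is also the table in which a library was deposited. By these transcripts the stimulated libraries are of female cells and the resting libraries of male cells. Stimulation, sex and the table cannot be told apart. KO and WT libraries of a condition were alike in which of these transcripts they held.

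The defining transcripts of CD4 T cells were present: 12 of them (among them Cd3e, Cd4 and Lck) summed to 3503 to 3594 CPM in KO stimulated, 3559 to 3623 in WT stimulated, 5127 to 5709 in KO resting and 4653 to 5789 in WT resting libraries. Markers of other cells were present too, and none of them was at 0 in all libraries of a group. The 12 B cell markers summed to 882.7 to 918.2 CPM in KO stimulated, 461.8 to 707.4 in WT stimulated, 1625 to 1849 in KO resting and 1267 to 2236 in WT resting libraries. The 13 myeloid markers summed to 65.62 to 70.77, 25.79 to 45.97, 1075 to 1108 and 1222 to 3510 CPM in the same groups. In bulk RNA, fewer cells of a type and less RNA per cell cannot be told apart.

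**Figure D1:**
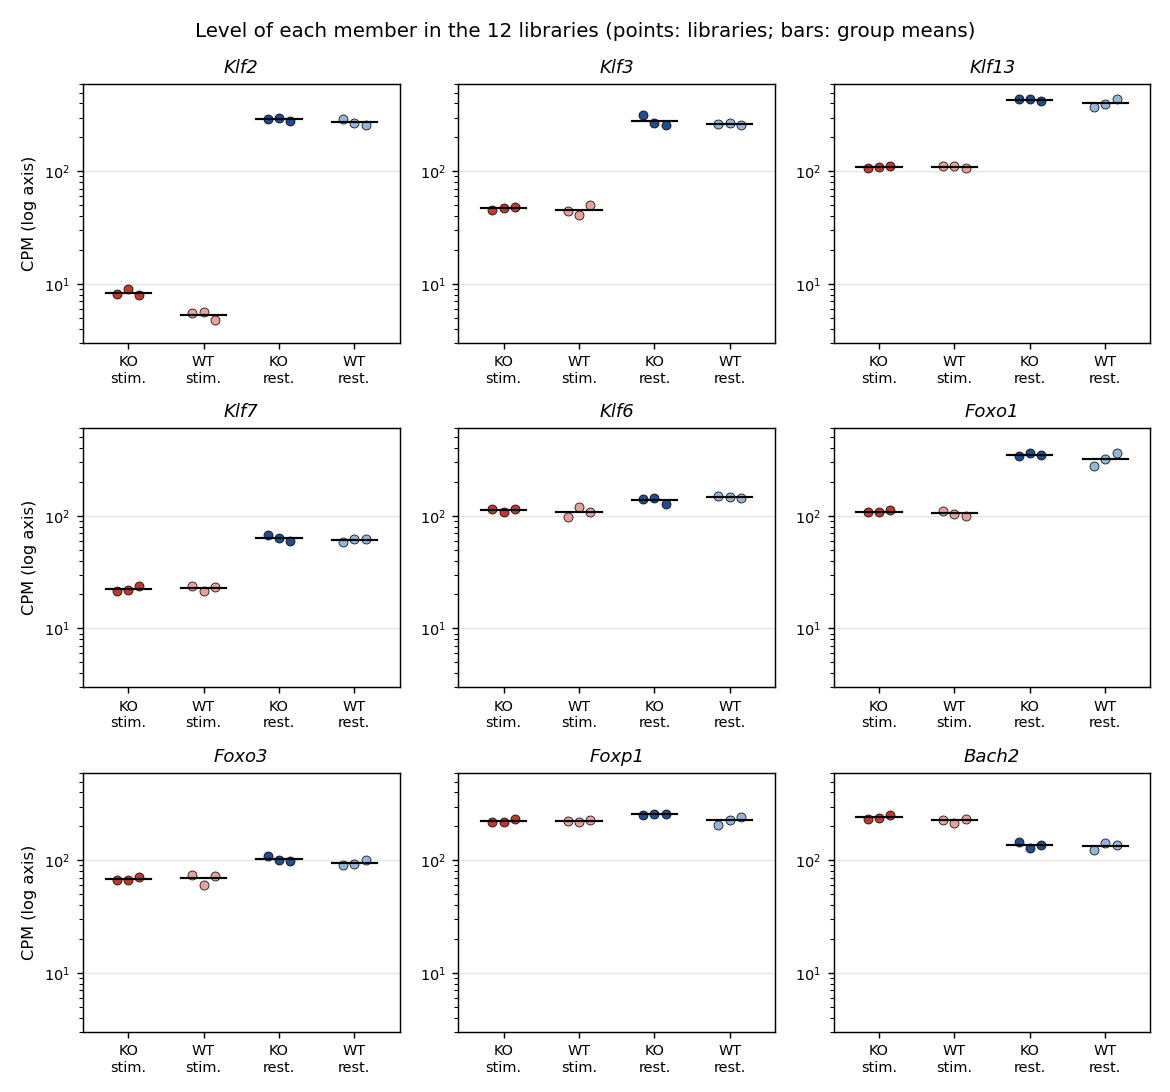
CPM (log axis) of each of the 9 genes in the 12 libraries, with KO stimulated, WT stimulated, KO resting and WT resting groups from left to right; points are libraries and bars are means of 3. Klf2 lies at 4.77 to 8.97 CPM in the stimulated libraries and 255.2 to 297.5 CPM in the resting libraries, whereas Bach2 lies higher in the stimulated libraries.

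Levels of different genes were compared as CPM per kilobase of exon, since longer transcripts yield more reads. In KO stimulated cells the order of mean levels was Klf6 (25.7 CPM per kb), Bach2 (24.3), Foxp1 (16.3), Klf13 (14.4), Foxo1 (12.6), Foxo3 (9.05), Klf2 (4.51), Klf3 (4.20) and Klf7 (2.76). The libraries of Klf6 and Bach2 overlapped, as did those of Klf2 and Klf3, and the other neighbours in that order did not. In WT stimulated cells Klf6 (24.6) and Bach2 (22.8), with overlapping libraries, also came before Foxp1 (16.2), Klf13 (14.6), Foxo1 (12.1) and Foxo3 (9.12). Klf3 (4.02) stood above Klf2 (2.87) there, and Klf2 overlapped with Klf7 (2.82).

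Resting cells gave a different order. In KO resting cells Klf2 came highest at 156 CPM per kb, followed by Klf13 (57.5), Foxo1 (40.4), Klf6 (31.4), Klf3 (24.8), Foxp1 (18.7), Bach2 (13.9), Foxo3 (13.6) and Klf7 (7.83). Bach2 and Foxo3 overlapped. WT resting cells had the same order, with Klf2 at 147, Klf13 at 53.2, Foxo1 at 36.7, Klf6 at 33.5, Klf3 at 23.5, Foxp1 at 16.4, Bach2 at 13.5, Foxo3 at 12.5 and Klf7 at 7.50 CPM per kb. Foxo1 overlapped with Klf6 there, and Bach2 with Foxo3. Klf2 was thus the most abundant of the 9 per length in resting cells of both genotypes and among the lowest 3 in stimulated cells. The length used changes these levels for genes with many annotated transcripts: the exons of Klf3 span 11243 bases in all, against 5221 in its longest transcript, and those of Foxp1 span 13751 bases, against 7177. With the longest transcript as the length, Foxp1 came highest in stimulated cells, at 31.3 CPM per kb in KO and 31.1 in WT. Bach2 then stood at 27.2 and 25.5, and Klf6 at 26.75 and 25.56, so the order given for stimulated cells depends on the length. The resting order depends on it too. With the longest transcript, Klf3 stood at 53.4 in KO resting and 50.6 in WT resting cells, above Foxo1 at 40.4 and 36.7. Klf2 stayed highest in resting cells.

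**Figure D2:**
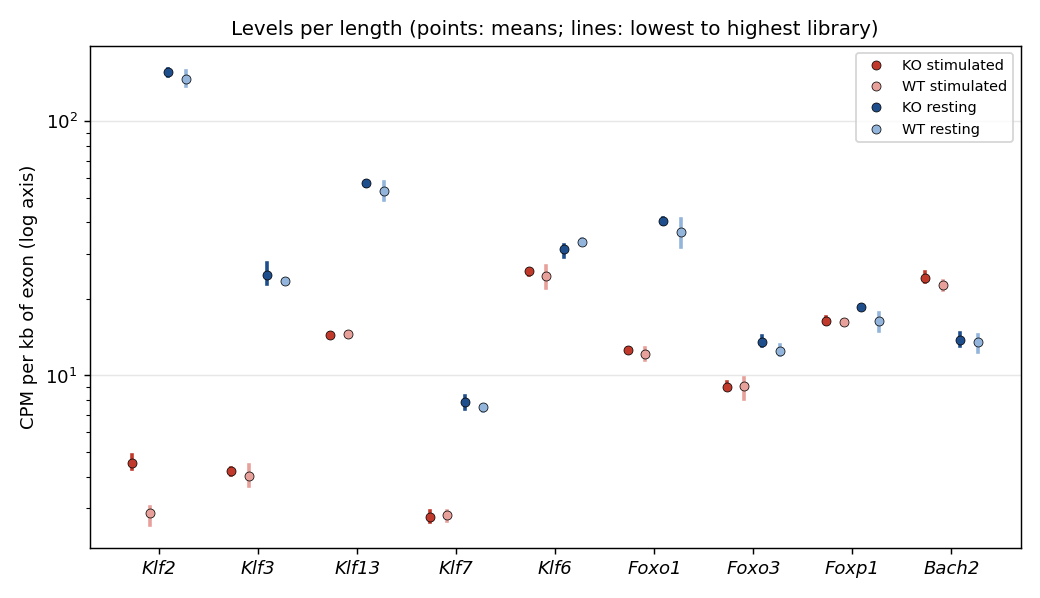
Mean CPM per kilobase of exon (log axis) of the 9 genes in the 4 groups; lines run from the lowest to the highest of 3 libraries. Klf2 averages 156 and 147 CPM per kb in KO resting and WT resting cells, above the other 8 genes, and 4.51 and 2.87 CPM per kb in KO stimulated and WT stimulated cells.

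Stimulated cells were then compared with resting cells within each genotype, in 1 model over all 12 libraries. In KO cells 8 of the 9 genes fell and 1 rose. In WT cells 7 fell, 1 rose and 1, Foxp1, did not pass the test. Most genes moved between these libraries: 82.9% of the 17460 genes tested were called in KO cells and 84.1% in WT cells. Of all genes 43.2% were called lower and 39.6% higher in KO cells, and 44.8% lower and 39.3% higher in WT cells. The median log2 fold change of the 9 genes was -1.50 in KO cells and -1.41 in WT cells, beside -0.11 and -0.14 over all genes tested. Libraries of the 2 conditions did not overlap for 9 of the 9 genes in KO cells and 8 of 9 in WT cells, as was so for 86.7% and 84.7% of all genes. Without the TMM factors, on library totals alone, the median of all genes lay at -0.44 in KO and -0.48 in WT cells, so the scale of each log2 fold change below shifts by the gap between these medians and those with TMM factors.

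Klf2 fell furthest. It stood at 8.12, 8.97 and 7.91 CPM in KO stimulated libraries, against 289, 297.5 and 278.4 CPM in KO resting libraries. WT stimulated libraries had 5.50, 5.60 and 4.77 CPM, against 292.4, 265.7 and 255.2 CPM in WT resting libraries. Every stimulated library was far below every resting one. The level was 34.6-fold lower in KO stimulated than KO resting cells (log2 fold change -5.11 ± 0.08, adjusted p = 7.1e-14) and 51.2-fold lower in WT stimulated than WT resting cells (-5.68 ± 0.08, adjusted p = 4.2e-14).

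Klf3, a repressor of the family that acts with the corepressor CtBP, came next. Its libraries held 45.73, 47.23 and 48.59 CPM in KO stimulated cells, against 312.9, 266.7 and 256.9 CPM in KO resting cells, and 44.37, 41.11 and 49.97 CPM in WT stimulated cells, against 263.7, 269.6 and 258.9 CPM in WT resting cells. The fall was close in size in the 2 genotypes, with log2 fold changes of -2.56 ± 0.08 in KO cells (adjusted p = 8.5e-12) and -2.55 ± 0.08 in WT cells (adjusted p = 8e-12). The gene shares exon bases with an antisense transcript, Gm20033, which stood at 0.402 to 2.91 CPM. Strand use in counting is not given, and the part of antisense reads in the Klf3 counts was not tested.

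Klf13, a family member with a role in late chemokine expression of T cells, stood at 107.4, 108.4 and 110.4 CPM in KO stimulated libraries, against 438.4, 438.6 and 421 CPM in KO resting libraries. WT stimulated libraries had 111.1, 111.4 and 106.8 CPM, against 369.7, 395.4 and 435.9 CPM in WT resting libraries. The stimulated libraries of both genotypes lay at 106.8 to 111.4 CPM, and none overlapped with a resting one. It was 3.98-fold lower in KO stimulated cells (-1.99 ± 0.06, adjusted p = 2.9e-12) and 3.65-fold lower in WT stimulated cells (-1.87 ± 0.06, adjusted p = 4.2e-12). Klf7 had 21.54 to 23.83 CPM in KO stimulated, 21.69 to 23.75 in WT stimulated, 59.80 to 67.56 in KO resting and 58.91 to 62.21 in WT resting libraries. It was 2.83-fold lower in KO stimulated cells (-1.50 ± 0.06, adjusted p = 4.6e-11) and 2.66-fold lower in WT stimulated cells (-1.41 ± 0.06, adjusted p = 7.9e-11).

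Klf6, an early response gene in many cell types, changed least of the 5 KLF genes. It had 114.4, 108.9 and 115.7 CPM in KO stimulated libraries, against 142.3, 143.5 and 128.3 CPM in KO resting libraries, and 96.68, 118.5 and 108.8 CPM in WT stimulated libraries, against 151.3, 145.7 and 144.7 CPM in WT resting libraries. The fall was 1.22-fold in KO cells (-0.29 ± 0.07, adjusted p = 0.0016) and 1.36-fold in WT cells (-0.45 ± 0.07, adjusted p = 4.2e-05). With the mean log2 CPM of the B cell and myeloid markers as a covariate, 7 of the 9 genes were still called in KO cells and 6 in WT cells. The value of Klf6 was then 0.12 in both genotypes (adjusted p = 0.68 in KO and 0.78 in WT), so the call and direction for Klf6 were lost. Those markers also differed between the conditions, as given above.

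Promoters are shown for the 2 genes that fell furthest and for Bach2, the gene that rose, since their changes lie at the ends of the range. The windows are from RefSeq (GRCm38.p6, 250 bases before to 50 after a transcription start, 5′ to 3′ on the gene's strand), which held 11 promoters for the 9 genes. Capitals mark the letters CACCC or, on the other strand, GGGTG, the core of a KLF motif. The Klf2 window lies at chr8:72318812-72319111 (plus strand), the Klf3 window at chr5:64803271-64803570 (plus strand) and the Bach2 window at chr4:32417185-32417484 (plus strand).

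Klf2: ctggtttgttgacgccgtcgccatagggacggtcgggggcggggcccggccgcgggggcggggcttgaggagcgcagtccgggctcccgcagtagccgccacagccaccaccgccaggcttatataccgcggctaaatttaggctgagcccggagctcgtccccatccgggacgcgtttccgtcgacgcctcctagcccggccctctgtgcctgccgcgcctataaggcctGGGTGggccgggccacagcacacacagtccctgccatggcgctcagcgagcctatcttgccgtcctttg

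Klf3: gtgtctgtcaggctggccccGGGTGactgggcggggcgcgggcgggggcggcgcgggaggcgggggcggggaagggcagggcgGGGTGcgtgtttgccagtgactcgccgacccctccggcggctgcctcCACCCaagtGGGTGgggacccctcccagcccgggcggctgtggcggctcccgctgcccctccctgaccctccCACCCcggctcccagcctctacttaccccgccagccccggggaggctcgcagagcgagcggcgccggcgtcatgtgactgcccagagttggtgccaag

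Bach2: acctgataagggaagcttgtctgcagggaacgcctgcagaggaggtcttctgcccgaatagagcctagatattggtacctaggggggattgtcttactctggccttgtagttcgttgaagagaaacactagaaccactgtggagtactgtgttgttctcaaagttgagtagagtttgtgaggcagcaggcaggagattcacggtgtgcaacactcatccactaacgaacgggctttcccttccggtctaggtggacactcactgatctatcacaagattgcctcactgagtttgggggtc

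The Klf2 and Klf3 windows were GC-rich (69.3% and 76.7% G or C, with 32 and 29 CpG dinucleotides), and the Bach2 window was not (50.3%, with 7 CpG dinucleotides). The Bach2 window surrounds a start inside the annotated gene, whereas those of Klf2 and Klf3 lie at the start of the gene. Klf2 had 1 KLF match, at 19 bases before the start, Klf3 had 5 and Bach2 had 0. Among the 11 promoters of the 9 genes, 6 held a KLF match, beside 57.5% of all 32851 promoters in the table. The forkhead motif GTAAACA and the AP-1 motif TGAGTCA, searched on both strands, were in 0 of the 11 windows and in 3.65% and 5.2% of all promoters. With 0 matches of these 2 motifs, no KLF match overlapped with one. A match is a description of letters only.

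The FOXO genes fell less than Klf2 and Klf3. Foxo1 stood at 107.3, 108.5 and 111.4 CPM in KO stimulated libraries, against 341, 361.4 and 347 CPM in KO resting libraries, and at 111, 104.5 and 100 CPM in WT stimulated libraries, against 277.1, 319.8 and 357.9 CPM in WT resting libraries. No stimulated library reached the lowest resting one. It was 3.21-fold lower in KO stimulated cells (-1.68 ± 0.08, adjusted p = 3e-10) and 3.03-fold lower in WT stimulated cells (-1.60 ± 0.08, adjusted p = 4.5e-10). Foxo3, a related factor known for control of cell cycle arrest and death genes, stood at 67.05, 67.24 and 71.13 CPM in KO stimulated libraries, against 108.7, 100.6 and 98.99 CPM in KO resting libraries. WT stimulated libraries had 73.74, 60.92 and 72.55 CPM, against 91.01, 91.91 and 99.9 CPM in WT resting libraries. The change was -0.59 ± 0.07 in KO cells (adjusted p = 4.7e-06) and -0.45 ± 0.07 in WT cells (adjusted p = 5.4e-05).

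Foxp1 was nearly level. Its libraries held 219.6, 220.3 and 233.3 CPM in KO stimulated cells, against 253.1, 258 and 259.7 CPM in KO resting cells, and 222.2, 220.7 and 226.4 CPM in WT stimulated cells, against 206.3, 229.4 and 242.7 CPM in WT resting cells. The KO conditions did not overlap and the WT conditions did. The log2 fold change was -0.20 ± 0.05 in KO cells (adjusted p = 0.0048) and -0.02 ± 0.05 in WT cells (adjusted p = 0.74, 95% interval -0.14 to 0.10). On library totals without TMM factors the WT value was -0.36 and passed the test (adjusted p = 5.4e-06). The difference between the 2 responses did not pass (-0.18 ± 0.08, adjusted p = 0.29).

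Bach2 rose, the one increase among the 9 genes. It stood at 232, 237 and 254.6 CPM in KO stimulated libraries, against 146.3, 129.7 and 136.9 CPM in KO resting libraries, and at 229.2, 215.5 and 233.7 CPM in WT stimulated libraries, against 122.6, 143.3 and 137.3 CPM in WT resting libraries. All 6 stimulated libraries were above all 6 resting ones. The level was 1.75-fold higher in KO stimulated cells (0.81 ± 0.07, adjusted p = 9.9e-08) and 1.68-fold higher in WT stimulated cells (0.75 ± 0.07, adjusted p = 2e-07). With the B cell and myeloid marker covariate the values were 0.34 (adjusted p = 0.19) and 0.09 (adjusted p = 0.82), and the calls were lost. B cells also express Bach2, and their marker sum was lower in stimulated than in resting libraries. Of the 12 B cell markers 10 were called lower and 1 higher in each genotype. Fcer2a averaged 161.6 CPM in KO stimulated and 53.9 CPM in KO resting cells. The part of B cells in the Bach2 result was not tested.

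**Figure D3:**
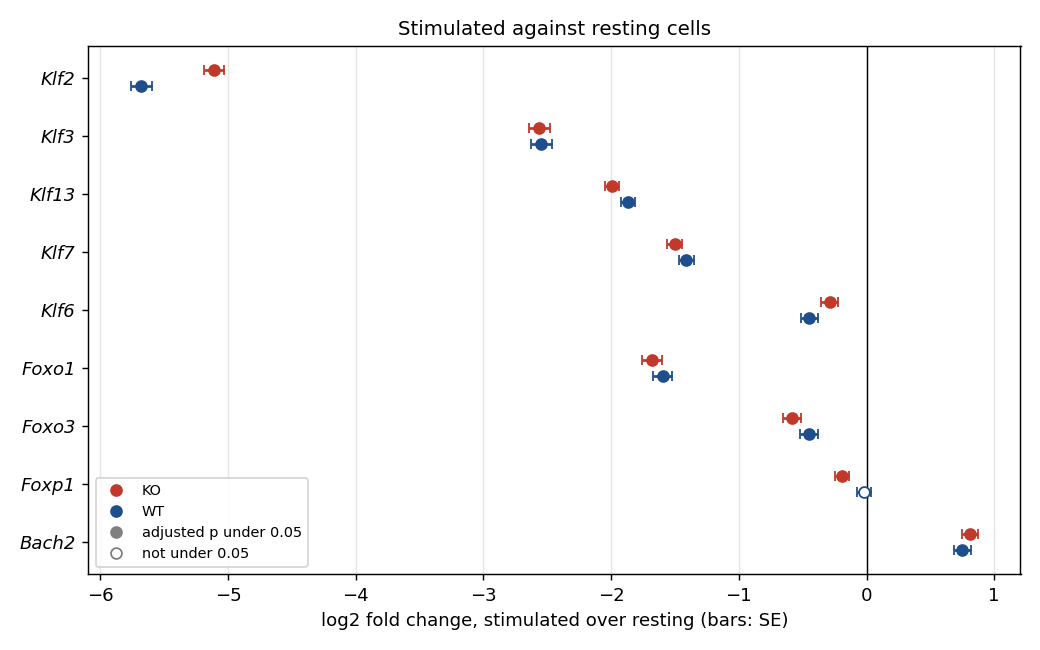
Log2 fold change, stimulated over resting, of the 9 genes in KO and WT cells, with bars of 1 standard error; filled points have an edgeR adjusted p under 0.05. Klf2 lies at -5.11 in KO and -5.68 in WT cells, Bach2 at 0.81 and 0.75, and the open point is Foxp1 in WT cells at -0.02.

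Of 3 receptor genes that Foxo1 or Klf2 are known to keep on in naive T cells, 2 fell and 1 rose in each genotype. S1pr1, the receptor that guides T cells out of lymphoid organs, had 5.67, 5.24 and 5.17 CPM in KO stimulated libraries, against 425.6, 486.9 and 480.6 CPM in KO resting libraries. WT stimulated libraries had 4.08, 4.03 and 3.91 CPM, against 318.9, 311.3 and 369 CPM in WT resting libraries. Its fall was larger than that of Klf2 in fold, 86.7-fold in KO cells (-6.44 ± 0.09, adjusted p = 4.6e-14) and 83.1-fold in WT cells (-6.38 ± 0.09, adjusted p = 4.1e-14); that order was not tested. Il7r, the interleukin 7 receptor chain, averaged 21.3 ± 1.23 CPM in KO stimulated and 374 ± 11.2 CPM in KO resting cells (SD, n = 3 each), and 19.1 ± 2.49 CPM in WT stimulated and 349 ± 48.9 CPM in WT resting cells. Its log2 fold change was -4.14 ± 0.12 in KO cells (adjusted p = 9.1e-12) and -4.19 ± 0.12 in WT cells (adjusted p = 7.5e-12).

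Ccr7, the chemokine receptor for entry to lymph nodes, did not follow S1pr1 and Il7r. It had 422.3, 413.6 and 391.5 CPM in KO stimulated libraries, against 308.9, 325.6 and 325.7 CPM in KO resting libraries, and 300.3, 328.2 and 324.6 CPM in WT stimulated libraries, against 251.7, 263.3 and 276.8 CPM in WT resting libraries. It rose in both genotypes (0.35 ± 0.05 in KO, adjusted p = 3.6e-05, and 0.27 ± 0.05 in WT, adjusted p = 0.00039), but on library totals alone the values were 0.03 (adjusted p = 0.51) and -0.07 (adjusted p = 0.1), so its direction depends on the scaling. With the marker covariate the values were 0.33 (adjusted p = 0.19) and 0.23 (adjusted p = 0.54).

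**Figure D4:**
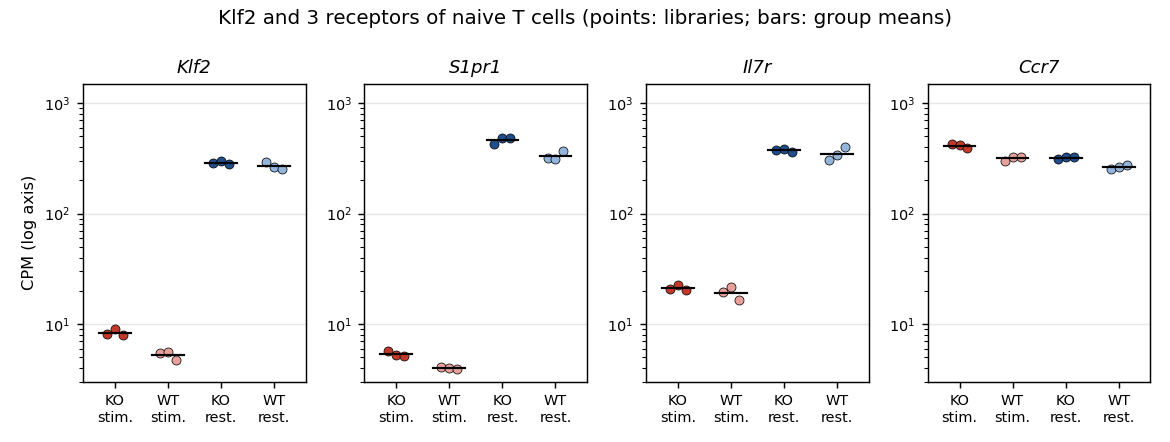
CPM (log axis) of Klf2 and the receptor genes S1pr1, Il7r and Ccr7 in the 12 libraries, with groups from KO stimulated to WT resting from left to right; bars are means of 3. S1pr1 averages 5.36 and 4.01 CPM in KO stimulated and WT stimulated cells and 464 and 333 CPM in KO resting and WT resting cells, while Ccr7 stays between 251.7 and 422.3 CPM throughout.

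Of 15 genes known as FOXO targets in various cells, 12 were called lower and 2 higher in each genotype (median log2 fold change -1.79 in KO and -2.06 in WT). Of all genes tested, 43.2% were called lower and 39.6% higher in KO cells, and 44.8% and 39.3% in WT cells. Pik3ip1, an inhibitor of PI3K, averaged 3.07 ± 0.23 CPM in KO stimulated and 108 ± 3.46 CPM in KO resting cells (SD, n = 3 each), and 2.73 ± 0.33 CPM in WT stimulated and 102 ± 3.38 CPM in WT resting cells. Its log2 fold change was -5.13 ± 0.08 in KO and -5.22 ± 0.08 in WT cells (adjusted p = 7e-14 and 5.9e-14). The cell cycle inhibitor Cdkn1b averaged 35.1 and 268.5 CPM in KO stimulated and KO resting cells, and 32.7 and 310.7 CPM in WT stimulated and WT resting cells. It changed by -2.94 ± 0.06 and -3.25 ± 0.06 on the log2 scale in KO and WT cells. Fbxo32, a ubiquitin ligase component, changed by -3.07 ± 0.09 and -3.20 ± 0.09, and Ccng2, an atypical cyclin linked to arrest, by -2.78 ± 0.04 and -3.06 ± 0.05, all with adjusted p below those of Foxo1.

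Genes that act on FOXO proteins did not move one way: of 21 tested, 12 were called higher and 8 lower in each genotype. Among all genes, 82.9% were called in either direction in KO cells and 84.1% in WT cells. Sgk1, a kinase that phosphorylates FOXO proteins, averaged 5.28 and 52.5 CPM in KO stimulated and KO resting cells and 4.32 and 52.8 CPM in WT stimulated and WT resting cells (log2 fold change -3.31 ± 0.13 and -3.61 ± 0.13). Pik3r1, a regulatory subunit of PI3K, changed by -1.75 ± 0.05 in KO and WT cells alike. The 14-3-3 genes Ywhae and Ywhag, whose proteins bind phosphorylated FOXO, rose by 1.99 ± 0.04 and 1.55 ± 0.06 in KO cells and by 1.97 ± 0.04 and 1.45 ± 0.06 in WT cells.

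Relatives of the 9 genes were counted the same way, beside 82.9% of all genes called in KO cells and 84.1% in WT cells. Of 10 other KLF genes tested, 3 rose and 5 fell in KO cells, and 2 rose and 3 fell in WT cells, where 8 were called on library totals alone. Klf16 stood at 83.7 and 29.9 CPM in KO stimulated and KO resting cells and 85.9 and 31.2 CPM in WT stimulated and WT resting cells (log2 fold change 1.49 ± 0.07 and 1.46 ± 0.07). Klf4, which myeloid cells also express, stood at 2.48 and 8.16 CPM in the KO groups and 1.55 and 9.20 CPM in the WT groups, in the same order (-1.72 ± 0.21 and -2.57 ± 0.22). With the marker covariate it stood at -0.04 and -0.20 and was not called. Klf1, an erythroid factor, was among the 5 that fell in KO cells (-4.49 ± 1.82, adjusted p = 0.044), with 0.198, 0.203 and 0.180 CPM in KO stimulated libraries, against 13.0, 0.0502 and 0.136 CPM in KO resting libraries. KO resting replicate 1 also held 1367 CPM of erythroid markers, against 202.5 and 129.5 CPM in the other KO resting libraries, and the Klf1 call was lost in 10 of 12 fits that left out a library. Of 15 other forkhead genes tested, 5 rose and 8 fell in KO cells, and 4 rose and 9 fell in WT cells. Foxm1, a driver of mitotic genes, averaged 85.4 and 8.03 CPM in KO stimulated and KO resting cells and 86.3 and 7.36 CPM in WT stimulated and WT resting cells (3.41 ± 0.17 and 3.55 ± 0.17). Of the other KLF and other forkhead genes, 3 and 8 were called in KO cells with the marker covariate, and 1 and 7 in WT cells.

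Of 11 other genes linked to lymphocyte quiescence, 9 fell and 2 rose in each genotype, with medians of -1.31 in KO and -1.37 in WT cells. Over all genes 43.2% were called lower and 39.6% higher in KO cells, and 44.8% and 39.3% in WT cells. The inhibitory receptor gene Vsir changed by -2.45 ± 0.05 in KO and -2.61 ± 0.05 in WT cells. The antiproliferative genes Btg1 and Btg2 changed by -1.88 ± 0.05 and -2.19 ± 0.06 in KO cells and by -1.94 ± 0.05 and -2.39 ± 0.07 in WT cells. Ets1, a factor that keeps naive T cells from differentiating, averaged 486.6 and 1541 CPM in KO stimulated and KO resting cells and 474.7 and 1486 CPM in WT stimulated and WT resting cells. Its log2 fold change of -1.66 ± 0.08 and -1.65 ± 0.08 was near that of Foxo1. Among 10 partners, competitors and targets of Bach2, 8 rose and 2 fell in each genotype (medians 1.44 in KO and 1.25 in WT). Irf4, a factor induced by receptor signalling, averaged 1415 and 34.1 CPM in KO stimulated and KO resting cells and 1550 and 28.9 CPM in WT stimulated and WT resting cells (5.38 ± 0.10 and 5.75 ± 0.10). The small Maf gene Maff, whose product pairs with Bach2, and the AP-1 family gene Batf changed by 2.86 ± 0.12 and 1.80 ± 0.08 in KO cells and by 2.71 ± 0.11 and 1.82 ± 0.08 in WT cells. Bach1, the closest relative of Bach2, changed by -1.92 ± 0.07 in WT cells.

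KO cells were compared with WT cells within each condition, each in a fit of 6 libraries. At rest, 0 of the 9 genes passed the test with edgeR, where 0.0361% of the 16637 genes tested did; 1 of the 9, Foxp1, had an unadjusted p under 0.05, as did 13.7% of all genes. The alternative tool DESeq2 also called 0 of the 9. The log2 fold changes lay between -0.10 (Klf6) and 0.18 (Foxp1), with a median of 0.08 beside 0.01 over all genes, and their 95% intervals lay within -0.24 to 0.33. Klf2 averaged 288 ± 9.58 CPM in KO resting cells and 271 ± 19.2 CPM in WT resting cells (SD, n = 3 each), a log2 fold change of 0.08 ± 0.07 (adjusted p = 0.65). Libraries did not overlap for 2 of the 9 genes, as for 19.9% of all genes. Foxp1 was higher, at 253.1 to 259.7 CPM in KO resting libraries against 206.3 to 242.7 CPM in WT resting libraries (0.18 ± 0.06, adjusted p = 0.33). Klf6 was lower, at 128.3 to 143.5 CPM in KO resting libraries against 144.7 to 151.3 CPM in WT resting libraries (-0.10 ± 0.06, adjusted p = 0.47).

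In stimulated cells 1 of the 9 genes was called, Klf2, which was higher in KO cells. Of the 15090 genes tested 4.76% were called, 3.37% higher and 1.4% lower. Klf2 had 8.12, 8.97 and 7.91 CPM in KO stimulated libraries, against 5.50, 5.60 and 4.77 CPM in WT stimulated libraries, with no overlap, as for 28% of all genes. The KO level was 1.58-fold the WT level (0.66 ± 0.09, 95% interval 0.46 to 0.86, adjusted p = 0.0061). It passed the test without each of the 6 libraries in turn, at 0.59 to 0.70. Both levels are small beside the 288 and 271 CPM that KO resting and WT resting cells averaged.

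Klf2 is also expressed by B cells, CD8 T cells and other blood cells, and markers of several cell types were higher in the same libraries. In KO stimulated over WT stimulated cells the 12 B cell markers had a median log2 fold change of 0.66, with 12 of 12 above 0 and 1 called; the 13 myeloid markers had a median of 0.75, with 6 called higher. The 2 CD8 T cell markers, Cd8a and Cd8b1, had a median of 0.75, both without overlap, with 1 called, and summed to 31.7 to 36.4 CPM in KO stimulated and 17.3 to 24.0 CPM in WT stimulated libraries. The 6 NK cell markers had a median of 0.47, with 6 of 6 above 0 and none called (2 at an unadjusted p under 0.05), and summed to 27.8 to 29.4 CPM in KO stimulated and 18.3 to 28.3 CPM in WT stimulated libraries. The 12 CD4 T cell markers had a median of -0.03. The part of the CD8 T and NK cell markers in the Klf2 result was not tested. With the mean log2 CPM of the B cell and myeloid markers as a covariate Klf2 stood at 0.59, with an adjusted p of 0.073. The B cell and myeloid sums of the KO stimulated libraries did not overlap with those of the WT stimulated libraries, so that genotype and these markers cannot be told apart in this comparison.

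Over the 9 genes the median was 0.06, beside 0 over all genes tested. The other 8 genes lay between -0.02 (Klf7) and 0.10 (Bach2) in stimulated KO over WT cells, with adjusted p of 0.23 to 0.97 and 95% intervals within -0.17 to 0.22. Bach2 averaged 241 ± 11.9 CPM in KO stimulated and 226 ± 9.51 CPM in WT stimulated cells. Foxo1 averaged 109 ± 2.10 CPM in KO stimulated and 105 ± 5.53 CPM in WT stimulated cells, and Klf13 109 ± 1.51 CPM in KO stimulated and 110 ± 2.56 CPM in WT stimulated cells.

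**Figure D5:**
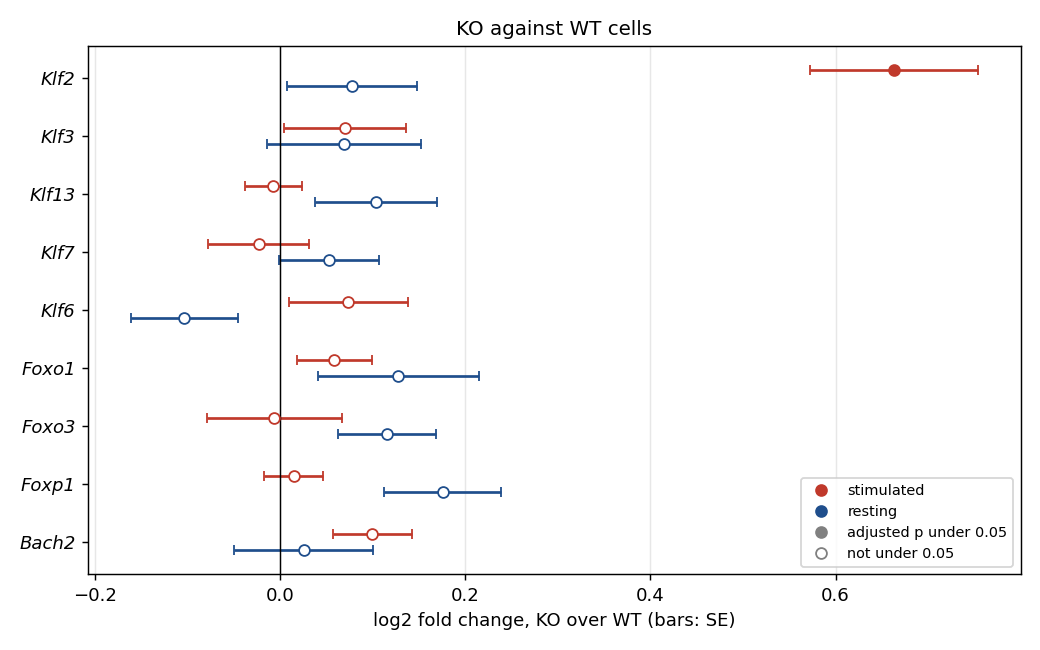
Log2 fold change, KO over WT, of the 9 genes in stimulated and resting cells, with bars of 1 standard error; filled points have an edgeR adjusted p under 0.05. Klf2 in stimulated cells, at 0.66, is the filled point, and the other values lie between -0.10 and 0.18.

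Of the 3 receptor genes, 2 were called higher in KO stimulated than WT stimulated cells, beside 3.37% of all genes. They were S1pr1 (0.43 ± 0.09, adjusted p = 0.028) and Ccr7 (0.37 ± 0.04, adjusted p = 0.002), each without overlap of libraries. Their values in resting cells were 0.47 ± 0.08 (adjusted p = 0.17) and 0.27 ± 0.05 (adjusted p = 0.2), also without overlap, and the difference between conditions did not pass for either (adjusted p = 0.83 and 0.6). Il7r did not pass (0.16 ± 0.09, adjusted p = 0.35). Of the 15 FOXO targets 0 passed, with a median of 0.14, and DESeq2 called 1. Libraries did not overlap for 7 of the 15, all higher, beside 28% of all genes in either direction. An unadjusted p under 0.05 was found for 7, beside 20.6% of all genes. Among the other forkhead genes Foxj2 passed (0.20 ± 0.04, adjusted p = 0.032), and among Bach2's partners and targets Jun, an AP-1 subunit, did (0.22 ± 0.05, adjusted p = 0.033). Ccr7 passed without each of the 6 libraries in turn. S1pr1, Foxj2 and Jun each failed without any of the 3 KO stimulated libraries or WT stimulated replicates 1 and 3, with adjusted p of up to 0.11, 0.13 and 0.13. Their values with a library left out were 0.39 to 0.45 (S1pr1), 0.17 to 0.21 (Foxj2) and 0.18 to 0.27 (Jun). With the marker covariate they failed at 0.45 (S1pr1, adjusted p = 0.15), 0.28 (Foxj2, adjusted p = 0.054) and 0.08 (Jun, adjusted p = 0.57).

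The responses of KO and WT cells were set against each other directly. Klf2 was called: its fall was smaller in KO cells by 0.57 ± 0.10 on the log2 scale (95% interval 0.35 to 0.79, adjusted p = 0.028), where 0.693% of the 17460 genes tested were called, 0.556% in that direction and 0.137% in the other. This call held in 3 of 12 fits that left out 1 library, at values of 0.50 to 0.61 and adjusted p of 0.0083 to 0.088. It was lost without any of the 3 KO resting or 3 KO stimulated libraries, WT resting replicate 2, or WT stimulated replicates 1 and 3. With the marker covariate the Klf2 difference was 0.38 (adjusted p = 0.29). The 13 myeloid markers had a KO over WT median of -1.20 at rest, with 0 of 13 above 0. Their own differences of responses had a median of 1.79, with 13 of 13 above 0 and 1 called. Differences for the other 8 genes lay between -0.18 (Foxp1) and 0.16 (Klf6), with adjusted p of 0.29 to 0.97. Without WT resting replicate 3 Foxp1 stood at -0.23 and was called (adjusted p = 0.046).

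Each gene's profile was compared with those of 9857 other genes as the root mean square distance of log2 CPM, centred on each gene's mean, over the 12 libraries. The distances mostly follow the gap between the 2 conditions, which all libraries share, and are a description. They are not scaled to a gene's own range, so a gene with a wide range has larger distances. Closest to Klf2 were Pou6f1, BC106179 and Tmem71, at 0.216, 0.220 and 0.227 log2 units, with Pearson's r of 0.999, 0.997 and 0.997 over the 12 libraries. Nearest to Klf3 were Arrb1 (0.0908), Adcy7 (0.0917) and Inpp1 (0.0984). Foxo1 lay closest to Ets1 (0.0412), then to Prkacb (0.0570) and Atp2a3 (0.0577). Klf13 was closest to Arhgap9 (0.0514), Stk38 (0.0533) and Cdk19 (0.0587), and Klf7 to Mrtfa (0.0521), Phf21a (0.0608) and Zscan26 (0.0625). The profiles nearest to Klf6 were those of Zfp959 (0.0553), Cox14 (0.0576) and Tab2 (0.0660), and those nearest to Foxo3 were Mon2 (0.0531), Tut4 (0.0538) and Wrn (0.0539). Foxp1 had Ubr1 (0.0299), Trim24 (0.0365) and Brd8 (0.0401), and Bach2 had Camsap1 (0.0587), Zfp101 (0.0645) and Ascc2 (0.0659). Among the 9 genes themselves, Klf7 and Foxo1 were closest (0.131), followed by Klf13 and Foxo1 (0.154) and Klf6 and Foxo3 (0.171), and Klf2 and Bach2 were farthest apart (3.10).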

How the data were processed

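Gene tables of 12 libraries were used as deposited. What the authors deposited are expected counts from RSEM for each gene, not normalized, with a table for each condition; about 7% of values are not whole, and they were rounded here. Per the submitters' processing notes, the build was mm10 and the tools included RSEM 1.3.1, STAR 2.7.0f, cutadapt 1.18 and bcl2fastq 2.20. The libraries were stranded, but no source used here says if counting used the strand, so antisense and overlapping genes cannot be told apart fully. Symbols and lengths came from GENCODE M21 (all 55450 IDs matched). Promoters came from RefSeq.

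Genes were kept by filterByExpr (minimum count 10, total 15), given TMM factors and put to the test of edgeR 4.0.16 (robust quasi-likelihood F-test, R 4.3.3), with Benjamini-Hochberg adjustment over all genes tested and a threshold of 0.05. KO and WT were compared in 6 libraries per condition; stimulation and the difference of responses in 4 group means over 12 libraries. Every p not called unadjusted is from edgeR unless DESeq2 1.42.0 is named. Errors after ± are standard errors for log2 fold changes and SD for CPM. Replicates differed by more than sampling noise in all groups, and each was counted. The code was tested on simulated counts.

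The 9 genes and the lists were chosen with earlier results of these data known. The text names all 9 genes, Pkm, up to 4 called genes with the largest change per list and comparison (at a mean of at least 1 CPM), and the 3 nearest profiles among genes of at least 5 CPM. Not every gene the rule gives is named, and some results are not reported here. Alternatives were DESeq2's size factors or Wald test, other filters, a non-robust fit, other libraries in the fit, a marker covariate, the replicate number as a block, each library left out, another transcript length and, added after seeing the data, library totals without scaling factors.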

Additional observations from a re-analysis of the deposited data

Results flagged for a closer look

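The stimulation response of Klf2 was called as different between the genotypes: the interaction of genotype and condition was 0.57 ± 0.10 on the log2 scale, KO minus WT (edgeR adjusted p = 0.028). The call held in 3 of 12 fits that left out 1 library, with edgeR adjusted p of up to 0.088. Klf2 changed by -5.11 in KO cells and -5.68 in WT cells. The 3 KO stimulated libraries, at 7.91 to 8.97 CPM, were each above the 3 WT stimulated libraries, at 4.77 to 5.60 CPM, and the resting libraries of the genotypes overlapped. B cell and myeloid marker sums were also higher in KO than WT stimulated libraries. At rest the myeloid markers lay the other way, with a KO over WT median log2 fold change of -1.20 and 0 of 13 above 0. Their differences of responses had a median of 1.79, with 13 of 13 above 0 and 1 called. The 12 B cell markers had medians of 0.23 at rest and 0.49 for the differences, with 0 called. With the B cell and myeloid markers as a covariate the Klf2 difference was 0.38 (adjusted p = 0.29).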

How the results depend on the processing

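Counts of called genes moved more than the values of the 9 genes. In resting KO over WT the 6 called genes became 518 with the DESeq2 Wald test, 40 with no low-count filter, 141 with the marker covariate, 161 with all 12 libraries in the fit, and 2 to 18 with a library left out. In stimulated KO over WT the 719 became 1133, 474 (marker covariate), 219 (all 12 libraries) and 128 to 1408 (a library left out; 1408 without WT stimulated replicate 2). With the marker covariate stimulation called 6523 genes in WT and 8208 in KO. For the difference of responses the 121 became 1012 with DESeq2, 204 with at least 1 CPM in 3 libraries, 1 with the marker covariate and 27 to 1646 with a library left out (1646 without WT resting replicate 3); of the 9 genes 0 were called with the covariate and 0 to 2 with a library left out. With the longest transcript as the length, 5, 4 and 5 of the 9 genes kept their rank in KO stimulated, WT stimulated and KO resting cells. The cause of these shifts was not tested. The lowest level among the 9 genes was 4.77 CPM (Klf2, WT stimulated), where counting error is largest.

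Signs turned for small values, mostly uncalled. With the marker covariate, resting Bach2 was -0.03; stimulated Klf6 -0.15, Klf7 0.13 and Foxo3 0.28 (called, adjusted p = 0.036); Klf6 after stimulation 0.12 in both genotypes; and the differences of responses 0.084 (Klf3), 0.054 (Klf7), 0.022 (Klf13), 0.17 (Foxo1) and 0.12 (Foxo3). With at least 1 CPM in 3 libraries, stimulated KO over WT was 0.003 for Klf13 and 0.004 for Foxo3, and the Klf3 difference 0; on library totals they were 0.015 (Klf13) and 0.016 (Foxo3), and Ccr7 after stimulation in WT was -0.07. With a library left out, KO over WT ranged from -0.029 to 0.086 (Bach2) and -0.025 to 0.12 (Klf3) at rest, and when stimulated from -0.002 to 0.14 (Klf6), -0.066 to 0.01 (Klf7), -0.03 to 0.005 (Klf13), -0.091 to 0.043 (Foxo3) and -0.012 to 0.034 (Foxp1). Foxp1 after stimulation in WT ranged from -0.081 to 0.039, Klf1 in KO from -5.07 to 1.04, and the differences of Foxo1 from -0.18 to 0.01 and of Klf3 from -0.076 to 0.079.

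Whether replicate numbers pair KO with WT libraries of a condition is not settled with 3 libraries per group. Stimulated and resting libraries differed in Xist and Ddx3y, as given above. A stimulated and a resting library with the same number are therefore not of the same animal. Same-numbered deviations of KO and WT libraries correlated at 0.43, -0.20 and 0.39 at rest and -0.09, 0.02 and 0.10 when stimulated. Between stimulated and resting libraries they correlated at 0.13, 0.05 and 0.09 in KO and at -0.26, -0.02 and 0.13 in WT cells. With the replicate number as a block the counts were 5, 997, 14615 (WT stimulation), 14442 (KO stimulation) and 95, and the number of the 9 genes called was the same in all 5 comparisons.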
